A study of Mus musculus with 2 samples.

Results

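The mouse mitochondrial genome encodes 37 annotated genes, and this section describes their RNA in the hearts of 2 mice. The genes were chosen by name alone, as those whose symbol begins with mt-, and they comprise 13 mRNAs, 2 ribosomal RNAs (mt-Rnr1 and mt-Rnr2) and 22 transfer RNAs, of 55536 annotated mouse genes in the deposited gene tables. Total RNA was sequenced from heart tissue of adult females of the F1 hybrid strain B6CASTF1/J, aged 8 to 10 months and supplied by The Jackson Laboratory. Replicate 1 is animal 1 of the labels and replicate 2 is animal 3, and together they form the only group, with no treatment or control named in the labels. The parents of the hybrid are C57BL/6J and CAST/EiJ; mitochondrial DNA passes through the mother, whose strain comes first in the name of a mouse hybrid, and the reads were assigned to the mm10 genome, which is C57BL/6J. Both libraries carry the same donor identifier and different animal numbers, so counting them as 2 animals (n = 2) depends on those numbers, and no p-value is given because the smallest that an exact two-sided sign-flip test allows with 2 animals is 0.5.

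Mitochondrial DNA is a small circle that is transcribed from both strands into long precursor RNAs. Transfer RNAs lie between most of the longer genes, and cutting them out releases the ribosomal RNAs and mRNAs, most of which are then polyadenylated. All 13 proteins are membrane subunits of the machinery of oxidative phosphorylation, where they sit beside subunits that the nucleus encodes: NADH dehydrogenase (complex I), cytochrome bc1 (complex III), cytochrome c oxidase (complex IV) and ATP synthase (complex V). Heart muscle is dense in mitochondria. Stretches of mitochondrial DNA have also been copied into nuclear chromosomes, where they are annotated as pseudogenes.

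The gene order in the GENCODE M21 annotation on GRCm38 (mm10) followed this layout. The 37 genes covered chrM:1-15422, 28 on the plus strand (12 mRNAs, 2 ribosomal RNAs and 14 transfer RNAs) and 9 on the minus strand (mt-Nd6 and 8 transfer RNAs). Of 36 neighbouring pairs, 25 had 0 to 4 bases between them, 9 overlapped and 2 lay farther apart, at most by 32 bases, and 14 of the 15 ribosomal RNA and mRNA genes had a transfer RNA directly next to them. The packing shows in the sequences. Of the 13 mRNAs, 10 carried a complete stop codon (8 TAA and 2 TAG), whereas mt-Co3, mt-Nd4 and mt-Cytb ended on a lone T, the part of a stop codon that polyadenylation completes. The 3 incomplete ends and 2 complete ones, from the GENCODE M21 transcripts on the plus strand, are shown 5′ to 3′ with the last whole or partial codon in capitals:
mt-Co3 (chrM:9376-9390): attgatgaggatctT
mt-Nd4 (chrM:11530-11544): caggcctgacaataT
mt-Cytb (chrM:15274-15288): taaaattatatccaT
mt-Nd1 (chrM:3691-3707): taccaccatacataTAG
mt-Atp6 (chrM:8591-8607): tacatgataatacaTAA
Start codons varied as well: 9 mRNAs began with ATG, and mt-Nd1, mt-Nd2, mt-Nd3 and mt-Nd5 began with GTG, ATA, ATT and ATC.

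The gene tables held 42223411 expected counts in replicate 1 and 40553237 in replicate 2, and the tables made directly from the FASTQ reads held 43782858 and 41468698 estimated counts. The 6 heart muscle markers ranged from 27.2 to 8288 TPM in the mean: Myh6, the main myosin heavy chain of the adult mouse heart, stood at 8288 ± 745 TPM (transcripts per 1000000; mean ± SD, n = 2) and Actc1, cardiac actin, at 4691 ± 1054 TPM. The liver genes Alb and Apoa1 stood at 0.010 ± 0.014 and 0.030 ± 0 TPM. Of other markers, the skeletal muscle genes Ckm, which heart muscle also expresses, and Acta1 stood at 1374 ± 100.9 and 114 ± 21.7 TPM. The third listed skeletal muscle marker, Myh4, stood at 3.085 ± 0.460 TPM. The brown fat genes Cidea and Ucp1 stood at 13.9 ± 1.53 and 1.09 ± 0.495 TPM, and the red blood cell genes Hbb-bs and Hba-a1 at 1034 ± 321 and 953 ± 281 TPM.

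RNA of the mitochondrial genome held 35.2% of all TPM in replicate 1 and 41.0% in replicate 2, or 38.1% ± 4.09. As a share of expected counts, which are not divided by length, it held 34.3% ± 4.39. The 2 ribosomal RNAs took 22.7% ± 2.90 of TPM and the 13 mRNAs 15.5% ± 1.19, so that mRNAs made up 40.7% ± 1.23 of mitochondrial TPM. The spike-in label names a profile for libraries reduced in ribosomal RNA, so shares that include the ribosomal RNAs are those of the libraries. In bulk tissue, more mitochondrial RNA per cell and more cells rich in mitochondria cannot be told apart. Of the 37 genes, 15 reached 1 TPM in both animals, namely every mRNA and both ribosomal RNAs, and 22 did not; over all annotated genes the share at that level was 20.9%, and over protein-coding genes 48.7%.

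The ribosomal RNAs led. The 16S RNA mt-Rnr2, of the large mitochondrial ribosomal subunit (chrM:1094-2675), stood at 125392 TPM in replicate 1 and 143120.0 TPM in replicate 2. The 12S RNA mt-Rnr1, of the small subunit (chrM:70-1024), stood at 80636 TPM in replicate 1 and 103869 TPM in replicate 2. Both lay above every mRNA in both animals, and mt-Rnr1, the lower, was 10.5 ± 0.780 times the median mRNA when reads assigned to nuclear copies (below) were counted with their mRNAs. The ratio of mt-Rnr2 to mt-Rnr1 was 1.56 in replicate 1 and 1.38 in replicate 2. In the FASTQ-derived tables that ratio was 1.80 in replicate 1 and 1.54 in replicate 2, so the excess of mt-Rnr2 held in both tables while its size did not.

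Among mRNAs of complex I, mt-Nd1, which forms part of the ubiquinone-binding site, was the highest in the gene tables, at 10533 TPM in replicate 1 and 11459.5 TPM in replicate 2. Of the subunits of the proton-pumping membrane arm, mt-Nd4 had 8065 and 9357 TPM, mt-Nd5 had 5895 and 7111 TPM, and mt-Nd2 had 4482 and 5678 TPM in replicates 1 and 2. Each of these 4 mRNAs was lower in replicate 1. The smaller membrane subunit mt-Nd3 was listed at 7712 TPM in replicate 1 and 7371 TPM in replicate 2; in the FASTQ-derived tables it stood above mt-Nd1, at 11144 ± 811 against 10184 ± 688 TPM. The only mRNA of the light strand, mt-Nd6 (chrM:13552-14070, minus strand), was listed at 1863 TPM in replicate 1 and 1799 TPM in replicate 2, the lowest level of any mitochondrial mRNA in the gene tables with the nuclear copies counted. It made up 1.19% ± 0.121 of mRNA TPM as deposited and 0.900% with copies counted. Its neighbour on the other strand, mt-Nd5, with 14 bases of overlap, stood 3.56 ± 0.558 times higher. Its base composition set mt-Nd6 apart too: 28.1% of its bases were G, against 5.88% to 16.1% in the other 12 mRNAs. The single mitochondrial subunit of complex III, mt-Cytb (cytochrome b), was listed at 15020.5 TPM in replicate 1 and 16967 TPM in replicate 2. The levels showed no run along the precursor: over the 12 plus-strand mRNAs, Spearman's rho of start position and TPM with copies counted was -0.13 in replicate 1 and -0.19 in replicate 2, as a description of genes within 1 library each.

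**Figure D1:**
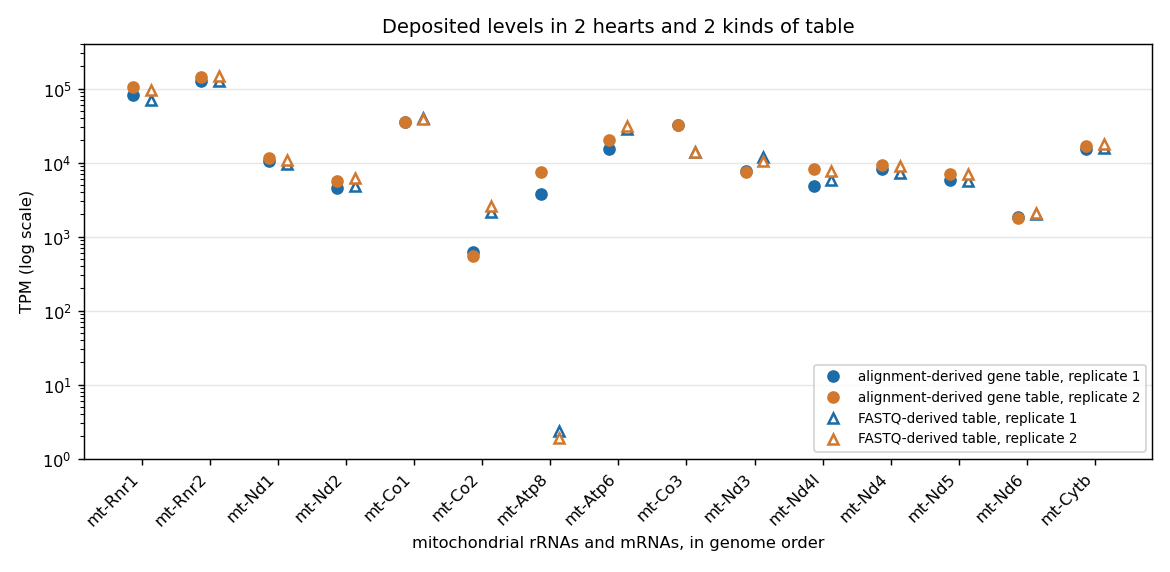
Deposited TPM (log scale) of the 2 ribosomal RNAs and 13 mRNAs in genome order, in the alignment-derived gene tables (filled circles) and the FASTQ-derived tables (open triangles), coloured by animal. The ribosomal RNAs lie highest in both tables, whereas mt-Co2, mt-Atp8 and mt-Co3 stand at different levels in the 2 kinds of table in both animals.

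A run of chromosome 1 repeats a stretch of the mitochondrial genome, and reads of 6 of the 7 mitochondrial mRNAs it matches were divided between the genes and that run in at least 1 table. On the minus strand of chr1:24611535-24616197, 4663 bases carry 7 annotated unprocessed pseudogenes in the order of chrM:6390-11042, from the end of mt-Co1 to within mt-Nd4. Gm29216 matched mt-Co1, Gm28661 matched mt-Co2, Gm10925 matched mt-Atp6, Gm28437 matched mt-Co3, Gm28438 matched mt-Nd3, Gm10222 matched mt-Nd4l and Gm28439 matched mt-Nd4. Over 4140 aligned bases there were 2 substitutions, and 5 of the 7 copies were contained whole in the mitochondrial transcript. In 5 of 6 gaps between neighbouring copies the number of bases equalled that in the mitochondrial genome, among them the 233 bases that hold mt-Atp8 up to its overlap with mt-Atp6, for which no copy is annotated. The copies were taken as transcripts with at least 50% of their 31-base words in mitochondrial transcripts. The least similar copy, Gm29216, had 97.2% of its words there, and the transcript closest below the limit, Gm13341, had 48.0% and stood at 9.62 and 15.3 TPM in replicates 1 and 2.

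Within the aligned stretches, the 2 substitutions are all that tells a gene from its copy. Counted from 1 at the 5′ end of the mitochondrial gene, they were A1066T between mt-Co1 and Gm29216, 4 bases into the aligned stretch, and T3C between mt-Nd3 and Gm28438; mt-Co2 differed from Gm28661 only in a last TAA that the annotated copy lacks. The aligned stretch took 483 of the 492 bases of Gm29216. The bases before it, at the start of the printed copy, lie outside the alignment and are in lower case too. The places of the substitutions and of the missing codon are shown 5′ to 3′ from the GENCODE M21 transcripts (GRCm38), with the differing base or the missing codon in capitals:
mt-Co1 (chrM:6378-6408, plus strand): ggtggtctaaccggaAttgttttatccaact
Gm29216 (chr1:24616170-24616197, minus strand): ggattggcaggaTttgttttatccaact
mt-Nd3 (chrM:9459-9476, plus strand): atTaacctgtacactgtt
Gm28438 (chr1:24613102-24613119, minus strand): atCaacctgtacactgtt
mt-Co2 (chrM:7667-7696, plus strand): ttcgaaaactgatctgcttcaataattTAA
Gm28661 (chr1:24614885-24614911, minus strand): ttcgaaaactgatctgcttcaataatt
Of the 31-base words of mt-Co2, 651 occurred in Gm28661 and 3 did not, and of the words of mt-Co1, 449 occurred in Gm29216 and 1066 did not.

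Of the 3 genes of complex IV, each shared reads with its copy in at least 1 kind of table. The catalytic subunit mt-Co1 had 1738415 expected counts in replicate 1 and 1704939 in replicate 2, and its copy Gm29216 had 274043 and 257047, or 13.4% ± 0.365 of the sum. The copper-binding subunit mt-Co2 had 12250.4 expected counts in replicate 1 and 10836 in replicate 2, against 597846 and 641414 for its copy Gm28661. The copy thus held 98.2% ± 0.245 of the counts of that pair, and mt-Co2 was listed at 623 and 547 TPM, below the other 12 mRNAs. For mt-Co3, the gene tables gave 747915 and 748113 expected counts to the gene and 4.64 and 4.44 to its copy Gm28437. The FASTQ-derived tables gave 288785 and 278189 estimated counts to mt-Co3 and 424209 and 415224 to Gm28437 in replicates 1 and 2. There the copy held 59.7% ± 0.272 of the counts, whereas the share of Gm29216 was 2.22% ± 1.19 and that of Gm28661 92.8% ± 0.791.

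The remaining pairs were divided in 1 kind of table, mainly in 1 animal, or hardly at all. For mt-Atp6, the proton-channel subunit of complex V, Gm10925 held 40.1% ± 6.27 of the expected counts in the gene tables and 0.040% ± 0.027 of the estimated counts in the FASTQ-derived tables. For the complex I subunit mt-Nd4l, Gm10222 was listed at 1206 TPM in replicate 1 and at 0.15 TPM in replicate 2, so its share of the counts was 19.7% in replicate 1 and 0.0017% in replicate 2. For mt-Nd4, Gm28439 had no counts in the gene tables and held 8.37% and 2.41% of the estimated counts in replicates 1 and 2 of the FASTQ-derived tables. Only mt-Nd3 kept essentially all of its reads in both tables, with 64348 and 61963 expected counts and 64962 and 60209 estimated counts. Whether any of the copies was transcribed was not tested. Gm28437, Gm28438 and Gm28439 averaged under 100 TPM in the gene tables and are named here after their values were seen.

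**Figure D2:**
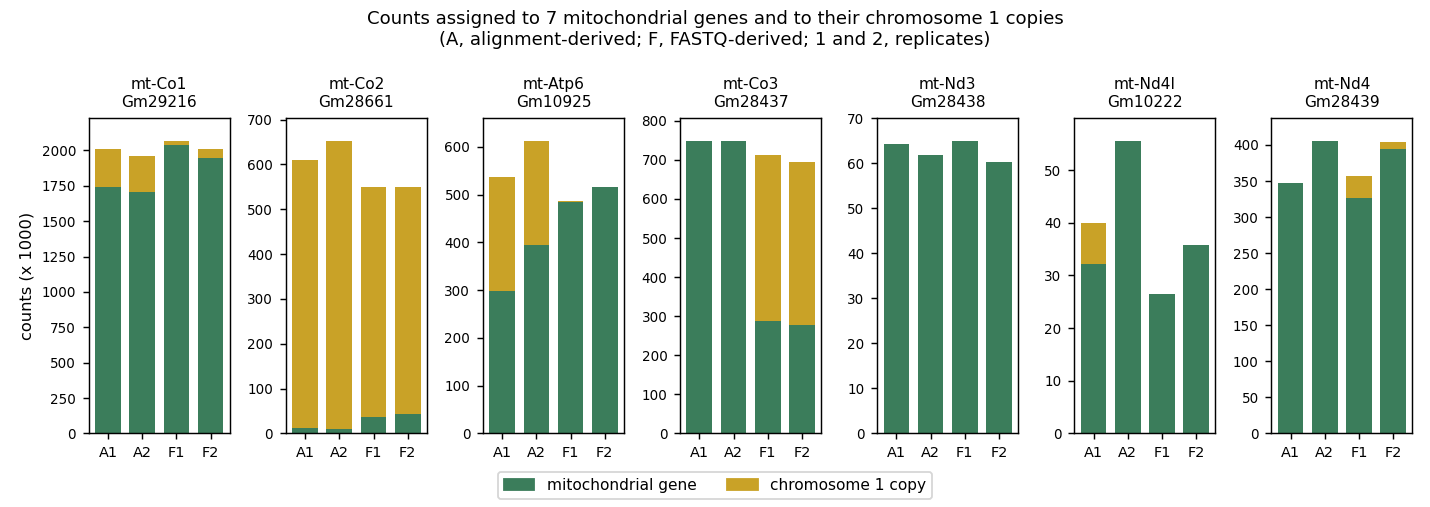
Counts (axis in units of 1000) assigned to 7 mitochondrial genes (green) and to their chromosome 1 copies (yellow, stacked above), in the alignment-derived gene tables (A) and the FASTQ-derived tables (F) of replicates 1 and 2; each panel has its own axis from 0. The division differs between tables, while the height of the whole bar differs less, by at most 1.55-fold (mt-Nd4l).

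Summed over gene and copy, the largest difference between the tables was smaller. Among the 7 pairs, the counts of a gene alone differed by up to 3.95-fold between the tables of 1 animal, for mt-Co2, whereas the counts of gene and copy together differed by at most 1.55-fold, for mt-Nd4l. Not every pair came closer: mt-Nd4l of replicate 1 had 32164 expected and 26403 estimated counts alone, and 40035 expected and 26403 estimated counts with its copy. In 5 of the 7 pairs the summed expected counts were whole numbers within 0.02 in both animals. Among them were mt-Nd3 and mt-Nd4, whose copies had no expected counts. The sums of mt-Co1 and mt-Co2 were not whole. These genes also share words with Gm13340 and Gm13341 on chromosome 2, below the limit for a copy. Expected counts in replicates 1 and 2 were 213 and 188 for Gm13340, and 185 and 297 for Gm13341. Of the 15 detected genes, 10 had whole expected counts in both animals, and the 5 others were mt-Co1, mt-Co2, mt-Atp6, mt-Co3 and mt-Nd4l. The deposited posterior means, another estimate in the gene tables, divided the reads in yet another way: for mt-Co2 they gave 7617 TPM in replicate 1, with bounds of 6486 and 8785, and 4993 TPM in replicate 2, with bounds of 4044 and 6150. The plain TPM of mt-Co2, 623 and 547, lay below those bounds in both animals. For the 10 genes with whole counts the posterior mean was 0.979 to 0.980 of the plain TPM. No mRNA had its plain TPM inside the bounds in both animals, and among all genes compared, 5.62% lay outside in at least 1 animal. The bounds were narrow at these high counts: for mt-Nd1 in replicate 1 they were 10279 and 10354 TPM, beside a plain TPM of 10533. The 5.62% covers genes of every compared level, so it is not a like comparison.

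Of the 13 mRNAs, 3 differed at least 2-fold between the tables in both animals: mt-Co3 and mt-Atp8 were higher in the alignment-derived table and mt-Co2 was lower, beside 5.25% of 12380 genes compared over all (2.89% higher and 2.36% lower). With copies counted, only mt-Atp8 differed 2-fold. Both tables come from the same reads, so this is a comparison of ways of assigning them and not of samples. Summed with the copy, mt-Co3 stood at 32382 ± 165 TPM by alignment and 34073 ± 199 TPM by FASTQ. Likewise, mt-Co2 stood at 31998.5 ± 1342 TPM by alignment and 32844 ± 896 TPM by FASTQ. For mt-Nd3 the counts were alike, yet the TPM was 7541 ± 241 by alignment and 11144 ± 811 by FASTQ; the effective lengths by which the counts were divided were 248 bases in the gene tables and 139 and 146 bases in replicates 1 and 2 of the FASTQ-derived tables.

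With copies counted, the gene tables ordered the mRNAs as mt-Co1 at 40724 ± 946 TPM, mt-Co3 at 32382 ± 165, mt-Co2 at 31998.5 ± 1342, mt-Atp6 at 29289 ± 2535 and, well below, mt-Cytb at 15994 ± 1376 TPM. Next came mt-Nd1 at 10996 ± 655, mt-Nd4 at 8711 ± 913, mt-Nd3 at 7541 ± 241, mt-Nd4l at 7176 ± 1607, mt-Nd5 at 6503 ± 860, mt-Atp8 at 5686 ± 2644, mt-Nd2 at 5079.7 ± 845 and mt-Nd6 at 1831 ± 45.6 TPM. The range from mt-Co1 to mt-Nd6 was 22.2-fold in replicate 1 and 22.3-fold in replicate 2. Of the 12 neighbouring steps in that order, 6 did not exceed the spread of the animals: mt-Co3 overlapped mt-Co2, mt-Co2 overlapped mt-Atp6, and the levels from mt-Nd3 through mt-Nd4l, mt-Nd5 and mt-Atp8 to mt-Nd2 overlapped their neighbours. The leading 5 came in the same order in the FASTQ-derived tables. The 3 mRNAs of complex IV together held 57.2% ± 2.60 of the counts of mRNAs and copies, the 7 of complex I 23.2% ± 1.54, the 2 of complex V 10.1% ± 0.613 and the 1 of complex III 9.56% ± 0.455. Counts are not divided by length, so longer mRNAs weigh more in these shares, and shares of TPM per complex were not computed.

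**Figure D3:**
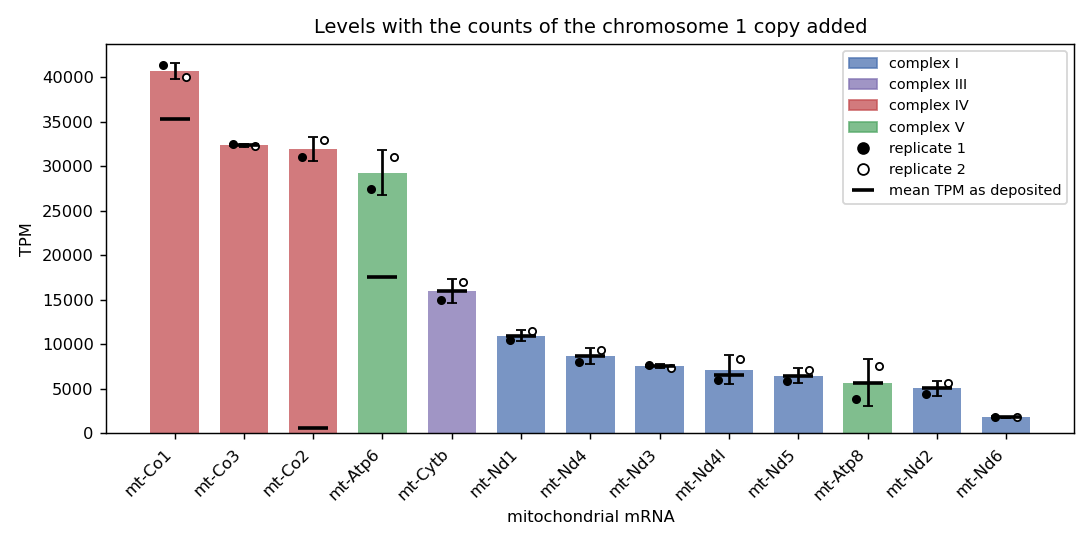
TPM of the 13 mRNAs in the gene tables with the counts of the chromosome 1 copy added, ordered by the mean of 2 animals (bars, with SD) and coloured by complex; circles are the animals and horizontal dashes the mean TPM as deposited. The 3 mRNAs of complex IV and mt-Atp6 stand above the rest, and the dash lies far below the bar for mt-Co2 and mt-Atp6.

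The ATP synthase genes mt-Atp8 and mt-Atp6 share 43 bases in different reading frames and come from 1 bicistronic mRNA. The whole of mt-Atp8, the shortest mitochondrial mRNA gene, is shown from the GENCODE M21 transcript (GRCm38, plus strand), with the bases it shares with mt-Atp6 in capitals, since its reads were the most dependent on the table:
mt-Atp8 (chrM:7766-7969): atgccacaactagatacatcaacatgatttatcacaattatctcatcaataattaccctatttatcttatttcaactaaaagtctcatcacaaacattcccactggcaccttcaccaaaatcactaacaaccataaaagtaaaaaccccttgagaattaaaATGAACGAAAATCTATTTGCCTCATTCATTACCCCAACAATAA
The gene tables gave mt-Atp8 13355 expected counts in replicate 1 and 26636 in replicate 2, at 3817 and 7555 TPM. The FASTQ-derived tables gave it 7 estimated counts in replicate 1 and 6 in replicate 2, at 2.34 and 1.89 TPM. Of its 174 words of 31 bases, 13 also occurred in mt-Atp6 and 13 in transcripts of genes outside the mitochondrial genome. The gene is 204 bases long. Its effective length was 104 bases in the gene tables, and 75.1 and 81.3 bases in replicates 1 and 2 of the FASTQ-derived tables. In the FASTQ-derived tables a long member, mt-Rnr1, had its length reduced by 256 bases in replicate 1 and 265 bases in replicate 2. In the gene tables the deduction was 100 bases for every detected member. The cause of the gap in mt-Atp8 counts between tables was not tested. The overlapping pair mt-Nd4l and mt-Nd4, with 7 bases in common, showed no such gap between tables: mt-Nd4l had 32164 and 55511 expected counts and 26403 and 35822 estimated counts in replicates 1 and 2.

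All 22 transfer RNAs were listed at 0 in both animals and in every table. They are 59 to 75 bases long, from mt-Ts2 to mt-Tl1, which carry serine and leucine and are shown whole as the shortest and longest members (GENCODE M21 on GRCm38, plus strand):
mt-Ts2 (chrM:11613-11671): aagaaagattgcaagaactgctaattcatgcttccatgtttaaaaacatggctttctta
mt-Tl1 (chrM:2676-2750): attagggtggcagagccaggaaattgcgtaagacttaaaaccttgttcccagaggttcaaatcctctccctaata
The zeros were not particular to the mitochondrial genes. In the gene tables all 28637 features with an effective length of 0, none longer than 100 bases, had no counts in either animal. In the FASTQ-derived tables none of the 827 other transcripts of 59 to 75 bases had a count. The 22 genes, 14 on the plus strand (mt-Tf, mt-Tv, mt-Tl1, mt-Ti, mt-Tm, mt-Tw, mt-Td, mt-Tk, mt-Tg, mt-Tr, mt-Th, mt-Ts2, mt-Tl2 and mt-Tt) and 8 on the minus strand (mt-Tq, mt-Ta, mt-Tn, mt-Tc, mt-Ty, mt-Ts1, mt-Te and mt-Tp), were therefore not measured, and no level is given for them.

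Mitochondrial RNA was lower in replicate 1 than in replicate 2 relative to the other genes. The ratio of replicate 1 over replicate 2 was taken on the log2(TPM + 0.1) scale and shifted by its median, 0.18, over the 11876 genes that averaged at least 1 TPM and held 20 expected counts. On that scale 12 of 13 mRNAs lay below 0 beside 50% of all compared genes, with a median of -0.36 over the mRNAs and quartiles of -0.14 and 0.14 over all genes. With copies counted, 13 of 13 lay below 0, at -0.12 to -1.17, and 10 lay below the lower quartile, where 25% of all genes lie by construction. By FASTQ, 12 of 12 compared mRNAs lay below 0, beside 50% of all compared genes. They ranged from -0.0033 for mt-Nd3, which hardly differed, to -0.53 for mt-Nd4l. There mt-Atp8, with 7 and 6 counts, was not compared. The ribosomal RNAs showed the same direction in the gene tables, at -0.55 for mt-Rnr1 and -0.37 for mt-Rnr2. Without centring, 8 mRNAs were lower in replicate 1 and 5 were higher, so the direction for single mRNAs depends on the scaling, while the median stayed below 0, at -0.18 uncentred and -0.39 centred on the spike-ins.

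Among single mRNAs, mt-Atp8 differed most, at 3817 TPM in replicate 1 and 7555 TPM in replicate 2, a centred log2 ratio of -1.17. It was the only one of 13 to differ 2-fold, beside 1.41% of all compared genes, and none of the 12 compared in the FASTQ-derived tables did, beside 1.39% of all compared genes there. For mt-Nd4l, 4853 TPM in replicate 1 and 8313 TPM in replicate 2 gave -0.96, and the ratio was -0.64 with its copy counted. For mt-Atp6, 15253 and 19997 TPM gave -0.57, or -0.36 with its copy counted. Since mt-Atp6 lies on the same bicistronic mRNA as mt-Atp8, the 2-fold difference of mt-Atp8 was not seen in the other gene of that mRNA. By contrast mt-Co2, at 623 and 547 TPM, had the only ratio above 0, and with its copy counted the ratio was -0.27. The complex IV mRNAs mt-Co1 and mt-Co3 differed little, at -0.14 and -0.17. With 1 library per animal these differences carry no test.

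**Figure D4:**
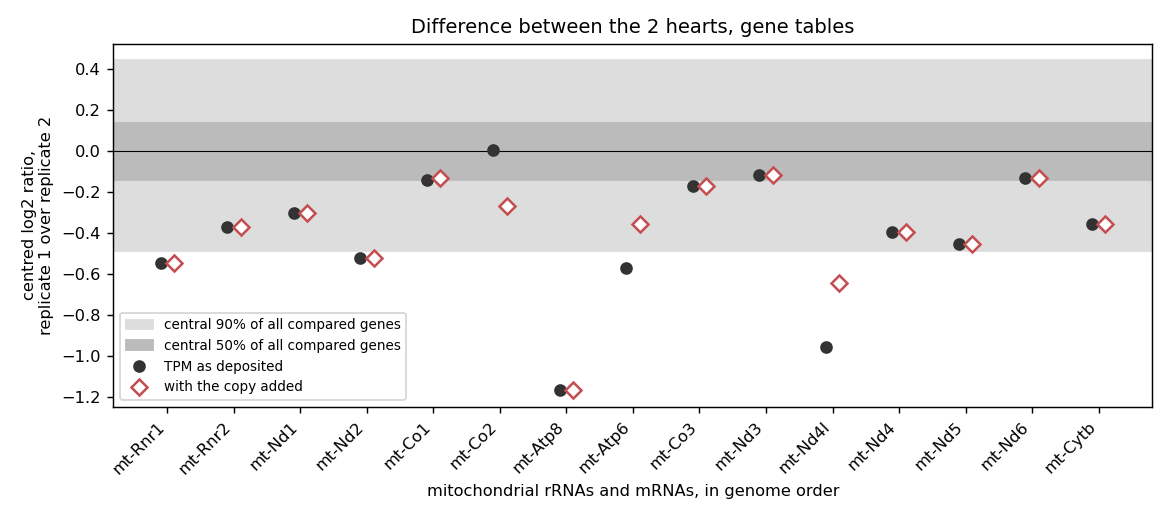
Centred log2 ratio of replicate 1 over replicate 2 for the ribosomal RNAs and mRNAs in genome order, from TPM as deposited (filled circles) and with the chromosome 1 copy counted (open diamonds); grey bands hold the central 50% and 90% of 11876 compared genes. All points but that of mt-Co2 as deposited lie below 0, and mt-Atp8 lies lowest, at -1.17.

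Nuclear genes and markers gave these values between the animals. The medians of the nuclear lists for complexes I, III, IV and V were -0.05, -0.03, -0.09 and -0.08. Most of their genes lay below 0 too: 30 of 36, 9 of 9, 10 of 11 and 13 of 14. The nuclear subunits thus shared the direction of the mitochondrial mRNAs, at a smaller size in the median. The 6 heart muscle markers had a median of 0.00. The red blood cell genes Hbb-bs and Hba-a1 were higher in replicate 1, at 0.46 and 0.43. The brown fat genes went opposite ways: Ucp1 stood at 0.74 TPM in replicate 1 and 1.44 TPM in replicate 2, a ratio of -1.06, and Cidea at 15.02 and 12.85 TPM, a ratio of 0.04. The part of these in the difference between the animals was not tested.

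The nuclear genes that were listed here as working with the mitochondrial genome, and matched, were all expressed, at far lower levels. Subunits outside the lists were not examined. Per complex, the median mitochondrial mRNA with copies counted exceeded the median nuclear subunit mRNA 23.3 ± 4.30-fold in complex I (7 mitochondrial and 36 nuclear genes), 29.4 ± 4.92-fold in complex III (1 and 9), 32.2 ± 1.09-fold in complex IV (3 and 11) and 30.1 ± 6.20-fold in complex V (2 and 14). As deposited, the folds were 23.0 ± 4.64, 29.4 ± 4.92, 31.9 ± 1.55 and 20.2 ± 6.31 in complexes I, III, IV and V. Copies were counted for mitochondrial genes only, and pseudogenes of the nuclear subunits were not searched for. In the gene tables with copies counted, every mitochondrial mRNA lay above every listed nuclear subunit of its complex in both animals. The margin was narrowest for mt-Atp8 in replicate 1, at 3817 TPM beside 3576 TPM for Atp5b. By FASTQ, mt-Atp8 at 2.34 and 1.89 TPM lay below all 14 nuclear subunits of complex V. As deposited in the gene tables, mt-Co2 lay above only 1 of the 11 nuclear subunits of complex IV. By FASTQ, without its copy, it lay above all 11. There it had 2153 and 2612 TPM in replicates 1 and 2, beside 2073 and 1873 TPM for Cox4i1, the highest of them. The highest nuclear subunits were Ndufa3 at 789 ± 68.5 and Ndufb8 at 748 ± 55.9 TPM in complex I, Uqcrq at 992 ± 72.7 and Uqcrc1 at 741 ± 57.3 TPM in complex III, Cox6b1 at 1777 ± 82.8 and Cox4i1 at 1731 ± 100.1 TPM in complex IV, and Atp5b at 3411 ± 233 and Atp5a1 at 1474 ± 129 TPM in complex V.

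**Figure D5:**
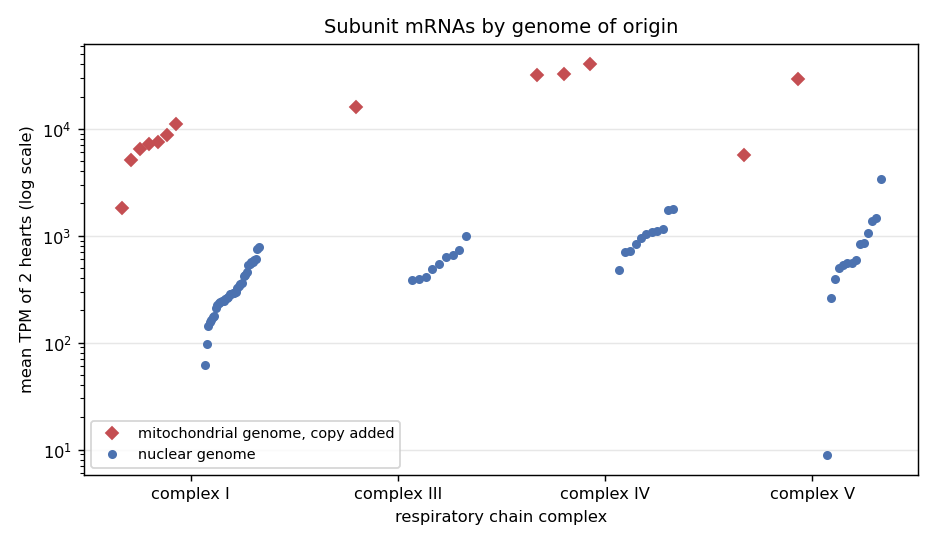
Mean TPM (log scale, 2 hearts, gene tables) of subunit mRNAs from the mitochondrial genome with copies counted (diamonds) and from the nuclear genome (circles), by complex. All diamonds lie above the circles of their complex, and the lowest diamond is mt-Nd6 at 1831 TPM.

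Genes that make and handle mitochondrial RNA stood lower still. Of 8 transcription genes the median was 13.4 ± 2.15 TPM, led by Tfb2m, the factor that opens the promoter, at 22.6 ± 2.02 and Tfam, which packages mitochondrial DNA, at 18.3 ± 0.580 TPM. Of 15 genes of RNA processing and stability the median was 11.98 ± 0.113 TPM, led by Fastk, of a family of mitochondrial RNA-binding proteins, at 112 ± 14.6 and Hsd17b10, a subunit of the mitochondrial RNase P, at 90.7 ± 4.14 TPM. Of 6 replication genes the median was 8.49 ± 0.746 TPM, led by Polg, the mitochondrial DNA polymerase, at 23.1 ± 1.56 and Twnk, its helicase, at 11.3 ± 0.057 TPM. Of 19 genes of aminoacyl-tRNA synthetases, whose substrates include the unmeasured transfer RNAs, the median was 8.93 ± 0.445 TPM, led by Kars, which also serves the cytosol, at 39.6 ± 2.33 and Fars2 at 31.3 ± 0.120 TPM. Of 10 translation factors the median was 17.7 ± 1.89 TPM, led by the elongation factors Tufm at 103 ± 18.9 and Gfm1 at 71.8 ± 4.67 TPM. All genes of these lists reached 1 TPM in both animals, and none differed 2-fold between them.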

How the data were processed

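For each heart library 3 tables were analysed: a gene table, a transcript table from the same alignments, and a transcript table from FASTQ reads. A directional library kit and ERCC spike-ins were used on total RNA, per the labels' protocols. Reads were assigned to mm10 with GENCODE M21, per the deposited description files. Names of the aligner and quantifier were not given in the sources used here. Expected counts (estimated counts that need not be whole), TPM and FPKM were deposited by the authors in the alignment-derived tables, and estimated counts and TPM in the FASTQ-derived ones, per the file headers. The authors also deposited posterior mean TPM with bounds (treated as a signal here), whose interval level is not stated, and lengths in bases. FPKM were not used for results. Counts were not rounded because no count test was run.

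Computed here were shares, means and SD over 2 animals, and log2 ratios with 0.1 TPM added, between animals (genes with a mean of 1 TPM and 20 expected counts) and between tables (mean of 1 TPM in either table, 2-fold in both animals). TPM with copies counted is the TPM of the gene times the summed counts over its own counts; a copy shares at least 50% of its 31-base words with mitochondrial GENCODE M21 transcripts. Bounds of a count of 0 (3 counts) would be 0.0711 and 0.0740 counts per 1000000 in replicates 1 and 2, by counting error only. The libraries differed beyond counting error (chi-square of 39.0 per degree of freedom over 15305 genes) and were kept as 2 samples. Named are all 37 genes, copies averaging at least 100 TPM, and of each nuclear list the 2 highest genes and any under 1 TPM. Myh4 is named besides, to complete the skeletal muscle markers. The members and lists were chosen with earlier results of these data known. Of 15 listed nuclear genes of complex V, 14 were matched. The ratio and the word search were tested on simulated data. The simulated counts varied by counting error only, less than these libraries did. They therefore cannot show how often genes of 2 animals lie 2-fold apart. Python 3.11.15, numpy 2.4.6, pandas 2.3.3, Biopython 1.88 and matplotlib 3.10.9 were used. Alternatives tried were other tables, units, pseudocounts, filters, centrings, each animal alone, and copies counted.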

Additional observations from a re-analysis of the deposited data

How the results depend on the processing

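With nuclear copies added, the mitochondrial share of TPM was 44.5% in place of 38.1%, and without the ribosomal RNAs in part and total it was 20.1%. The mRNA share of mitochondrial TPM, 40.7%, was 33.8% in expected counts, which are not divided by length, and 47.5% with copies counted. The number of mRNAs 2-fold apart between animals, 1 in the gene tables, was 0 in the FASTQ-derived tables with or without copies counted and 0 without centring; that between tables, 3, was 1 with copies counted. The level of mt-Co2, 585 TPM, was 2383 TPM in the FASTQ-derived tables, 6305 TPM by posterior mean and 31998.5 TPM with its copy. The light-strand share of mRNA TPM, 1.19%, was 1.34% in the FASTQ-derived tables, 0.543% in expected counts and 0.900% with copies counted. The cause of these differences was not tested beyond what each setting is made of. Taking 1 animal alone gave ranges of 35.2% to 41.0% for the mitochondrial share, 39.8% to 41.5% for the mRNA share, 547 to 623 TPM for mt-Co2 and 1.10% to 1.27% for the light strand. The median ratio between animals ranged from -0.18 to -0.39 over its settings, no result changed sign, and leaving out an animal was not possible for it. Alternatives with copies counted were chosen after seeing the data, except those for the share and for mt-Co2. No paired analysis was possible because the series has 1 group. With 2 animals the SD itself is imprecise, counting error is small at these levels, and reads shared by identical sequences limit mt-Co1, mt-Co2, mt-Atp6, mt-Co3 and mt-Nd4l most.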
